A study of Mus musculus with 2 samples.

Results

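Regulatory T cells were read from droplet 3' single-cell RNA libraries of J558 allografts as barcodes (droplets taken as cells) that carried T cell receptor complex transcripts together with Foxp3. A barcode was taken when it held over 2000 genes, under 15% of its UMIs in mitochondrial genes, at least 1 UMI of Cd3d, Cd3e and Cd3g together, at least 1 UMI of Foxp3, at most 1 of Cd8a and Cd8b1, under 4 of Mki67 and Top2a, at most 2 of Csf1r, C1qa, C1qb and C1qc, and under 3 of Trap1a. A UMI (unique molecular identifier) is a tag that counts 1 captured transcript. Selected on these measured UMI counts, 73 barcodes met every condition, 1 in the vehicle library and 72 in the TAK-931 library, of 11123 barcodes in both libraries and 6929 past the gene and mitochondrial limits. The levels of the genes in the rule are therefore given as descriptions.

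The libraries came from 1 allograft each, which the study picked as representative of its group, so that no test across animals was possible. Shares are compared between the 2 libraries, and levels between groups of barcodes inside the TAK-931 library. J558, a plasmacytoma line of BALB/c origin, was grown under the skin of female BALB/c mice with an intact immune system. One mouse received 0.5% methylcellulose by mouth and the other TAK-931, an inhibitor of the replication kinase CDC7, at 60 mg/kg by mouth once daily, both for 6 days. The labels and methods name no sort, so tumor and host cells were loaded together, and the T cells described here are host cells beside the labelled J558 cells. Intervals are 95% intervals, exact unless another kind is named, and cover counting error only.

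Regulatory T cells are CD4 T cells that restrain other immune cells, and the forkhead factor Foxp3 is required for their identity. They consume IL-2 through a high-affinity receptor, display the inhibitory receptor Ctla4 and can release the suppressive cytokine IL-10. In tumors an activated form is common, with TNF receptor family members such as Tnfrsf4 (OX40), Tnfrsf9 (4-1BB) and Tnfrsf18 (GITR) at its surface.

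The libraries differed in what they held before any T cell was counted. Of 4565 vehicle barcodes with 144767193 UMIs in all 3441 passed the limits, and 2992 of these were J558 barcodes (at least 3 Trap1a UMIs and no CD3 UMI). Of 6558 TAK-931 barcodes with 77369283 UMIs in all 3488 passed, of which 67 were J558 barcodes and 1745 myeloid barcodes (over 2 UMIs of the myeloid genes of the rule and no CD3 UMI). The vehicle library held 209 such myeloid barcodes. Both libraries shared 8 barcode sequences, none of them among the regulatory T barcodes.

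All Foxp3-positive barcodes past the gene and mitochondrial limits were followed through the rule. In the vehicle library 11 such barcodes were found, of which 6 were left out for lack of a CD3 UMI, 1 by the CD8 limit and 3 by the cell cycle limit, which left 1. In the TAK-931 library 148 were found, and 3 lacked CD3, 19 exceeded the CD8 limit, 40 of the rest exceeded the cell cycle limit and 14 of the rest the myeloid limit, which left 72. The Trap1a limit removed none after the other limits. Most of the loss in the TAK-931 library was therefore through Mki67 and Top2a, the genes of dividing cells, and 27 Foxp3-positive T barcodes failed that limit alone.

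**Figure D1:**
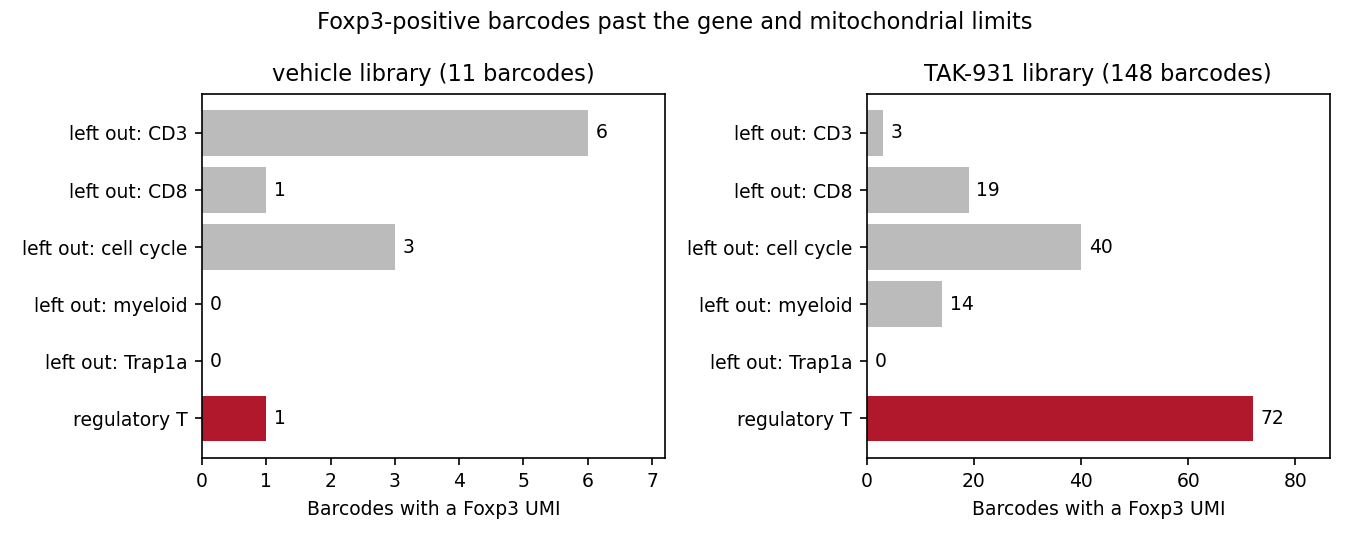
Bars count Foxp3-positive barcodes past the gene and mitochondrial limits that each condition of the rule left out, in order, and those kept (red), in the vehicle library (left) and the TAK-931 library (right; the axes differ). Of 11 vehicle barcodes 1 was kept and of 148 TAK-931 barcodes 72.

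Members and other barcodes at the edges of the rule were counted for each limit, and a member may stand at more than 1. In the TAK-931 library 4 members had 3 Mki67 and Top2a UMIs, just inside the limit, and 3 otherwise qualifying barcodes had 4. At the myeloid limit 11 members had 2 UMIs and 5 barcodes outside had 3. At the CD8 limit 6 members had 1 UMI and 1 barcode outside had 2. Foxp3 itself was read from 1 UMI in 10 members, 2 in 13, 3 in 10, 4 in 12, 5 in 11, 6 in 9, 7 in 2, 8 in 3 and 9 in 2.

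The share of regulatory T barcodes was higher in the TAK-931 library over each population tried, and the vehicle value rests on 1 barcode. Over all barcodes past the limits the share was 0.0291% (0.000736 to 0.162) in the vehicle library and 2.06% (1.62 to 2.59) in the TAK-931 library, a difference of 2.04 percentage points (1.59 to 2.56, Newcombe interval). That denominator includes tumor and myeloid barcodes, whose numbers differed between the libraries as given above, and a larger number of cells and a better capture of them cannot be told apart. Over T barcodes it was 1 of 17 (5.88%, 0.149 to 28.7) against 72 of 436 (16.5%, 13.2 to 20.3), and the interval of the difference, −10.7 to 16.8 points, included 0. Among T barcodes low in CD8 transcripts it was 1 of 13 (7.69%, 0.195 to 36.0) against 72 of 168 (42.9%, 35.3 to 50.7), a difference of 35.2 points (8.54 to 45.0). With every barcode thinned to 4000 UMIs before Foxp3 was counted, the values were 0 of 13 (up to 24.7%) and 53 of 168 (31.5%, 24.6 to 39.2).

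Many of those CD8-low barcodes were not clearly T cells. In the vehicle library 9 of the 13 held under 5 UMIs of the T cell receptor constant genes Trac, Trbc1 and Trbc2, and 7 held over 20 UMIs of J558 marker genes. In the TAK-931 library 61 of the 168 held under 5 receptor UMIs. With at least 5 receptor UMIs and at most 20 UMIs of markers of other lineages required (a check added after seeing the data, called receptor-checked below), the shares were 1 of 4 (25%, 0.631 to 80.6) and 64 of 98 (65.3%, 55.0 to 74.6), and the interval of the difference (−5.69 to 62.5 points) included 0. A difference in the Foxp3-positive share among T cells themselves was thus not resolved between the libraries at this number of vehicle T cells. Barcodes of 1 library per group are not replicates, so more of them would not resolve a difference between treatments.

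Foxp3 was close to absent in J558 and myeloid barcodes without CD3, the only populations outside T cells in which it was counted. It was detected in 6 of 2992 J558 barcodes of the vehicle library (0.201%, 0.0736 to 0.436; median 42446 UMIs a barcode) and in 2 of 1745 myeloid barcodes of the TAK-931 library (0.115%, 0.0139 to 0.413; median 15021 UMIs), beside a median of 11013 UMIs in the 72 members. The CD8 T barcodes were chosen with Foxp3 at 0. In a separate draw of the members alone to 4000 UMIs per barcode 50 of the 72 showed a Foxp3 UMI (69.4%, 57.5 to 79.8), beside the 53 of the draw over all CD8-low T barcodes.

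The only vehicle member carried the full set of regulatory T cell markers. It held 20024 UMIs over 3484 genes with 5.57% mitochondrial UMIs, 3 UMIs of Foxp3, 36 of Ctla4, 13 of Ikzf2, 20 of Tnfrsf4, 10 of Tnfrsf18, 8 each of Maf and Tnfrsf9, 6 of Icos and 3 of Il10, and none of Klrg1. It also held Trap1a, the J558 marker, below the limit. With 1 barcode no level can be compared between the libraries, and everything that follows describes the 72 members of the TAK-931 library. They had a median of 11013 UMIs (5935 to 27630), 2867 genes and 4.79% mitochondrial UMIs. A Cd4 UMI was present in 62 of them.

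Markers that the rule did not use were present in nearly all members. Ikzf2 (Helios, an Ikaros family factor of regulatory T cells) was read from 3 to 43 UMIs in every member, with a median of 18. For Ctla4, which binds the costimulatory ligands B7-1 and B7-2, the range was 0 to 28 and the median 8.5. Tnfrsf4 ranged from 0 to 62 with a median of 8, and Tnfrsf18 from 0 to 26 with a median of 7. All 4 of these markers were detected in 65 of 72 members (90.3%) and 3 of them in the other 7. At 4000 UMIs Ikzf2 was found in every member and in 2.52% of myeloid barcodes. All 4 were detected in 24 of 256 CD8 T barcodes (9.38%) and in 2 of the 16 Foxp3-negative CD4 barcodes. Ranges of single barcodes overlapped between the groups for each of the 4.

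**Figure D2:**
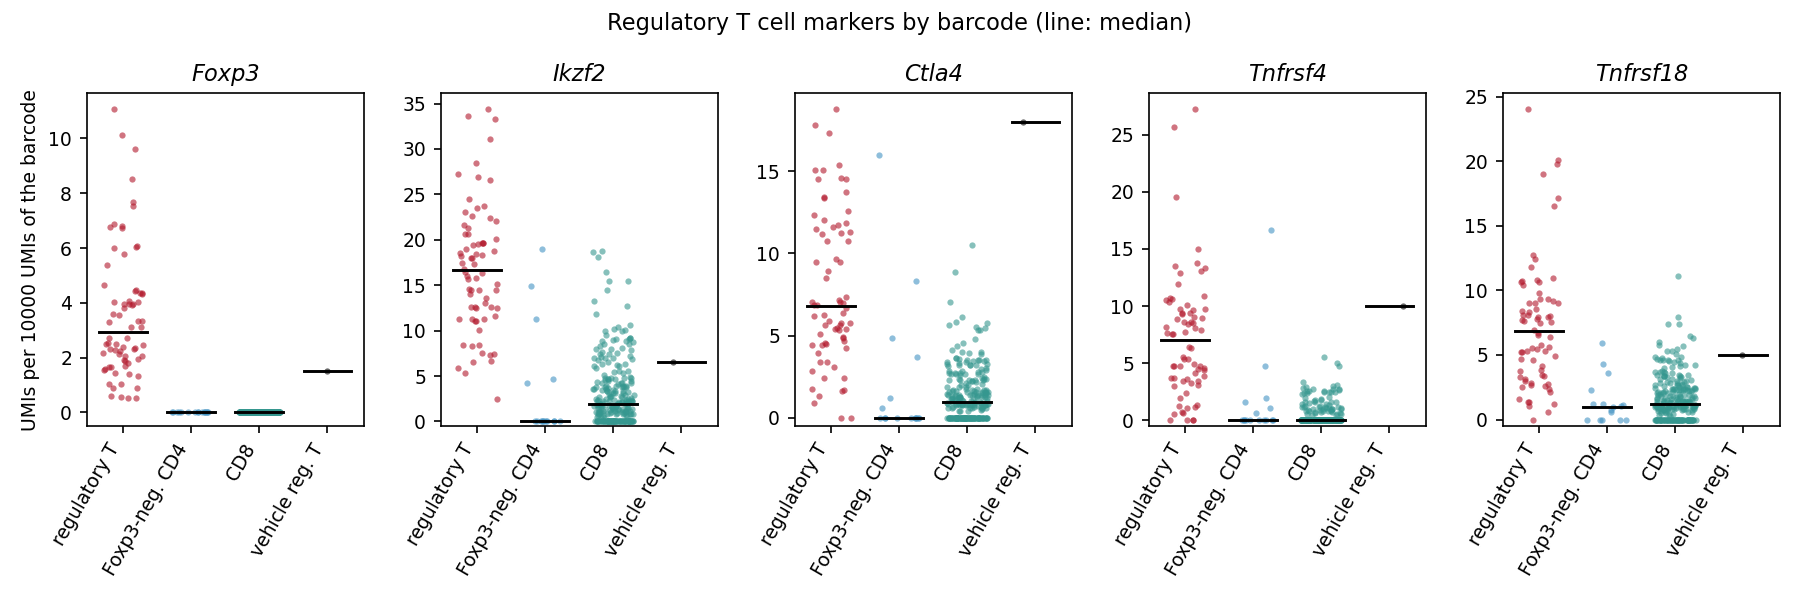
Each point is a barcode, with UMIs of 1 marker per 10000 UMIs of that barcode on the vertical axis and the median as a line, for regulatory T (n = 72), Foxp3-negative CD4 (n = 16) and CD8 T barcodes (n = 256) of the TAK-931 library and the 1 vehicle member. Foxp3 chose the groups, and the medians of the other 4 markers are highest in the TAK-931 regulatory T barcodes among the 3 groups of that library.

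Markers of other cell types ranged widely in level in the members. All 7 natural killer markers (Ncr1, Klrb1c, Klre1, Klra4, Klra7, Klra8 and Eomes) and all 4 mast cell and basophil markers were at 0 UMIs. The summed level of the 5 B cell markers was 6.78 UMIs per 1000000 UMIs of the group (CPM) and that of the 4 neutrophil markers 9.05 CPM. Macrophage markers summed to 872 CPM, dendritic markers to 632 CPM, J558 plasmacytoma markers to 363 CPM (301 CPM in CD8 T barcodes) and endothelial markers to 89.3 CPM. Of the macrophage sum 78.9% came from 2 barcodes. Over 20 UMIs were held by 6 members for dendritic, 2 for macrophage and 2 for J558 markers. Over all markers of other lineages summed 8 members exceeded 20 UMIs. The part of such UMIs in the levels below was not tested gene by gene. Each list below is also given receptor-checked, and a named gene is where the check ended or turned its 2-fold call.

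The Foxp3-negative CD4 barcodes, the planned contrast, were few and mixed. Only 16 were found in the TAK-931 library and none in the vehicle library. Of the 16, 4 held under 5 receptor UMIs and 5 held over 20 UMIs of other lineages, mainly of fibroblast genes such as Col1a1 and Dcn (4965 CPM summed, 99.7% of it in 2 barcodes) and of dendritic genes (1512 CPM), which left 11 after the check. At the same time 2 of the 16 held 58.2% of the UMIs of the 5 regulatory T cell markers, with Foxp3 at 0. CD8 T barcodes (at least 2 Cd8a and Cd8b1 UMIs, no Cd4 and no Foxp3 UMI, n = 256, median 10555 UMIs) were larger in number, and 243 of them passed the check. Levels were compared as sums of UMIs over the barcodes of a group in CPM, and a gene was called at a 2-fold difference where the 2 sums together reached 20 UMIs.

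Against the Foxp3-negative CD4 barcodes 1011 of 5435 genes were at least 2-fold higher in the members (18.6%) and 468 at least 2-fold lower (8.61%), with a median log2 ratio of 0.17 over all genes. Receptor-checked, 964 of 4576 were higher (21.1%) and 215 lower (4.7%). With the Cd4 condition dropped from the contrast (79 barcodes), 1342 of 8166 were higher (16.4%) and 1904 lower (23.3%). Against CD8 T barcodes 759 of 8490 were higher (8.94%) and 778 lower (9.16%), with a median of 0.03. Centred on abundant genes, that median was −0.10, with 604 genes higher and 942 lower. Receptor-checked against CD8, 8.53% were higher and 9.37% lower. These shares are the background for the lists below, and with 16 barcodes in the contrast a gene of low count passes 2-fold easily.

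The regulatory T cell identity list stood higher than both contrasts. Of its 15 genes 13 could be compared with CD4 barcodes, and 10 were at least 2-fold higher and none lower, with a median log2 ratio of 1.90 (receptor-checked 11 of 13 and 1.42). Against CD8 T barcodes 12 of 14 were at least 2-fold higher and none lower, with a median of 2.44, and receptor-checked 13 were higher and 1 lower (2.45). The list was drawn up with earlier results of these libraries known. Gpr83, an orphan receptor of regulatory T cells, was at 0 UMIs in all 3 groups.

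The list holds transcription factors and inhibitory receptors. Summed over the members Ikzf2 had 1395 UMIs (1577 CPM), beside 261 CPM in CD4 and 313 CPM in CD8 T barcodes, a 6.04-fold higher level than in CD4 barcodes (log2 ratio 2.60, 2.18 to 3.04) and a log2 ratio of 2.33 (2.21 to 2.45) over CD8. Ikzf4 (Eos), a Foxp3 partner, was higher only beside CD8 T barcodes, with 97.2 CPM against 10.7 (3.19, 2.59 to 3.82), while its ratio to CD4 barcodes was 0.25 (−0.55 to 1.15). Ctla4 was at 745 CPM, beside 163 CPM in CD4 barcodes (2.19, 1.66 to 2.77) and 128 CPM in CD8 T barcodes (2.54, 2.36 to 2.72).

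Surface molecules linked to suppression followed. Izumo1r (folate receptor 4) was at 173 CPM, beside 38.1 CPM in CD4 and 2.00 CPM in CD8 T barcodes, and was detected in 47.2% of members, 12.5% of CD4 and 0.781% of CD8 T barcodes at 4000 UMIs. Lrrc32 (GARP, which holds latent TGF-beta at the surface) was at 57.7 CPM against 0.999 in CD8 T barcodes (5.85, 4.22 to 8.18), and Itgb8, whose integrin activates that TGF-beta, at 40.7 against 0.666 (5.93, 3.98 to 9.03). Both had intervals over CD4 barcodes that reached below 0 (Lrrc32 0.82, −0.40 to 2.33; Itgb8 1.90, −0.05 to 5.00). The ectoenzymes that make adenosine differed from each other, since Nt5e (CD73) was above CD8 T barcodes (1.41, 0.69 to 2.11) and Entpd1 (CD39) was at 80.3 CPM, below the 158 CPM of CD8 T barcodes (−0.97, −1.36 to −0.61). Nrp1 was low throughout, at 14.7 CPM in members.

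The IL-2 receptor alpha chain was detected in fewer members than its beta chain, at shares that depend on depth. Il2ra was at 109 CPM, beside 10.9 CPM in CD4 barcodes (2 UMIs; 3.32, 1.43 to 6.39) and 49.6 CPM in CD8 T barcodes (1.13, 0.74 to 1.51), and it was detected in 38.9% of members, or 22.2% at 4000 UMIs. Its partner chain Il2rb was detected in 97.2% of members, with a level of 560 CPM below the 721 CPM of CD8 T barcodes (−0.37, −0.51 to −0.22). Of 11 compared genes of IL-2 and STAT5 signalling 2 were at least 2-fold higher than in CD4 barcodes and 2 lower (median 0.41, receptor-checked 3 and 1, 0.35), and 3 of 12 were higher and 1 lower than in CD8 T barcodes (median 0.44, receptor-checked 3 and 1, 0.50). The higher ones beside CD8 were Il2ra, Pim1 (1.59, 1.42 to 1.75) and the STAT5 target Cish (3.39, 2.45 to 4.41).

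**Figure D3:**
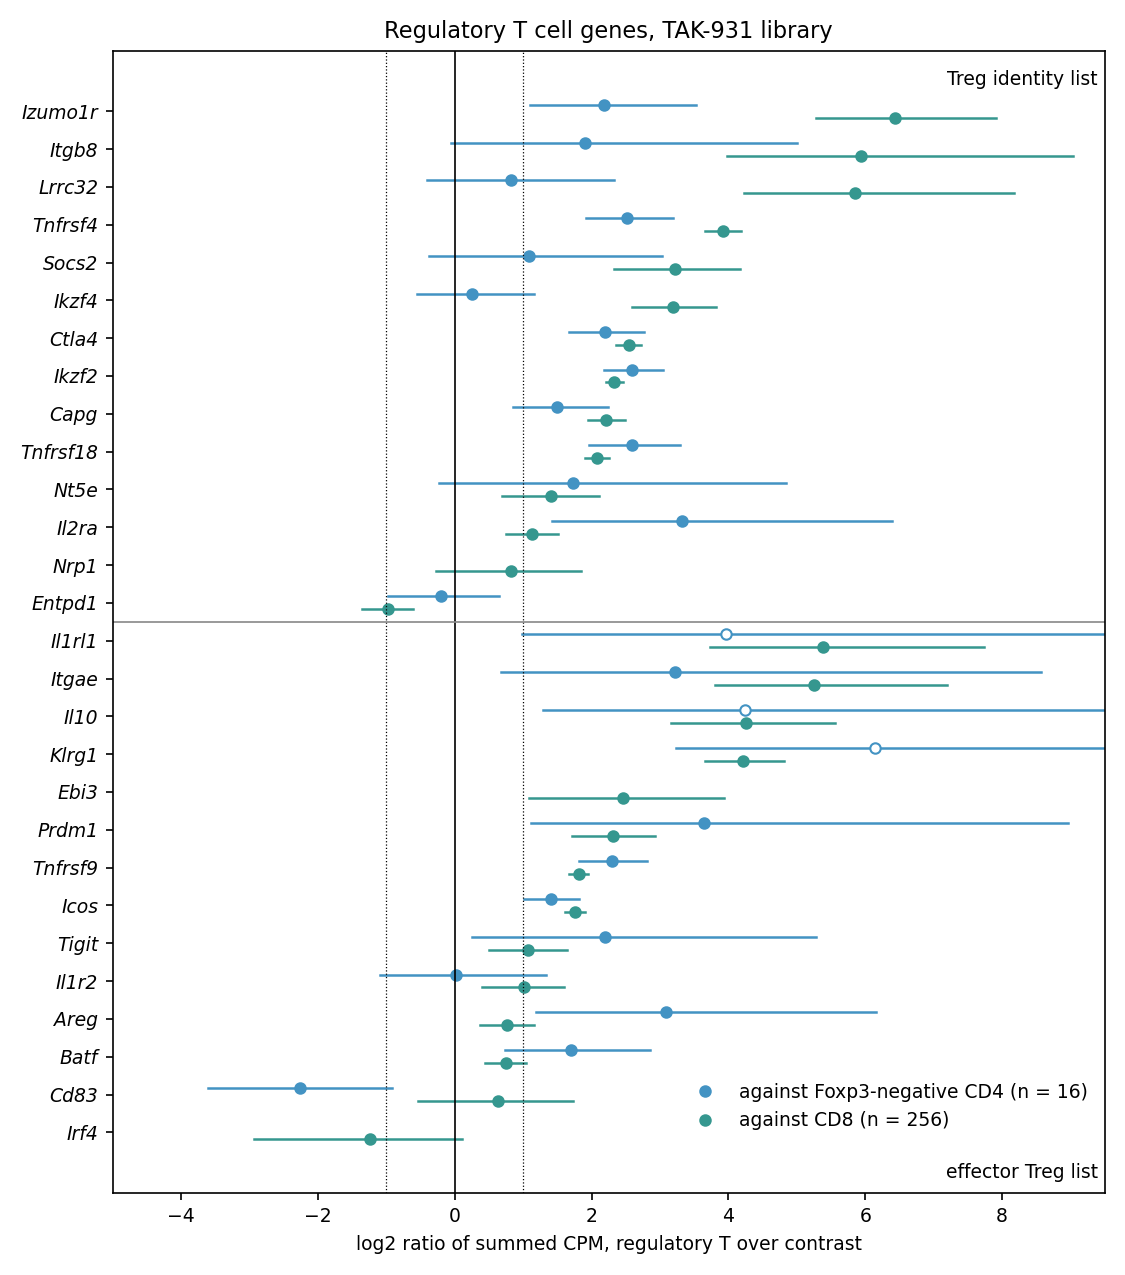
Points are log2 ratios of summed CPM of the regulatory T barcodes (n = 72) over Foxp3-negative CD4 (blue) and CD8 T barcodes (green) for compared genes of the identity list (top) and the effector list (bottom); bars are 95% counting intervals that run to the frame where they have no end, dotted lines mark 2-fold, and open points have 0 UMIs in the contrast, so their place depends on the 0.5 UMI added. Intervals over CD8 T barcodes are narrower than over the 16 CD4 barcodes.

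Genes of activated, tissue-dwelling regulatory T cells were also higher. Of 16 effector genes 12 could be compared with CD4 barcodes, and 10 were at least 2-fold higher and 1 lower, with a median of 2.69, or 1.94 with the genes at 0 in the contrast set to their bound (receptor-checked 9 of 11, with medians of 2.46 and 1.01 at the bound). Against CD8 T barcodes 10 of 14 were higher and 1 lower (median 1.78, receptor-checked 9 and 1 of 12, 1.77). Tnfrsf9 was at 959 CPM, beside 196 CPM in CD4 (2.29, 1.81 to 2.82) and 273 CPM in CD8 T barcodes (1.81, 1.67 to 1.95), and was detected in 90.3% of members at 4000 UMIs. Icos, the costimulatory receptor, was detected in all 72 members, with 832 CPM against 315 and 247, and its log2 ratio to CD4 barcodes was under 2-fold receptor-checked (0.63). Itgae (CD103), which binds E-cadherin, was at 50.9 CPM against 1.33 in CD8 T barcodes (5.26, 3.80 to 7.19).

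Klrg1, a receptor of terminally differentiated lymphocytes, had the highest ratio to CD4 barcodes among the ranked genes. This place depends on the 0.5 UMI added, since its floor value below lies under the 18.9-fold of Igflr1. Klrg1 had 169 UMIs in 38 of 72 members (191 CPM, 163 to 222) and none in the 16 CD4 barcodes. With 3 counts taken as the floor of the group it was at least 11.7-fold higher, while its exact interval began at a log2 ratio of 3.24. Folds given as "at least" use this floor throughout and leave out the counting error of the other count. Their exact intervals therefore reach closer to equal levels. In CD8 T barcodes Klrg1 was at 10.3 CPM (4.21, 3.65 to 4.81). At 4000 UMIs it was detected in 41.7% of members (30.2 to 53.9), 3.52% of CD8 T and 0.287% of myeloid barcodes. Il10 had 45 UMIs in 18 members (50.9 CPM) and none in CD4 barcodes, at least 3.12-fold higher, and was at 2.66 CPM in CD8 T barcodes (4.26, 3.16 to 5.55) and at 34.9 CPM in myeloid barcodes. With barcodes over 1000 genes admitted its ratio to CD4 barcodes was 1.24, and 0.48 with the receptor check as well.

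Il1rl1, the receptor of the alarmin IL-33, was concentrated in few members. Its 37 UMIs lay in 8.33% of members and 43.2% of them in 1 barcode, while CD8 T barcodes had 3 UMIs. Areg, an epidermal growth factor family ligand made by tissue regulatory T cells, was at 92.7 CPM in 22.2% of members with 31.7% of its UMIs in 1 barcode, beside 54.6 CPM in CD8 T barcodes (0.76, 0.36 to 1.16). Ccr8, often used to mark tumor regulatory T cells, had 13 UMIs in 12.5% of members and 2 UMIs in each contrast, which was under the count minimum. Prdm1 (Blimp-1) was at 67.8 CPM (2.31, 1.72 to 2.92 over CD8), Batf at 158 CPM (0.75, 0.45 to 1.05) and Irf4 at 5.65 CPM, the last below the 13.3 CPM of CD8 T barcodes with an interval that included 0 (−1.24, −2.93 to 0.11).

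Gene positions were taken from GENCODE vM21 (GRCm38, the same assembly as the mm10 of the submitters' notes). Foxp3 (ENSMUSG00000039521) lies on chromosome X at 7573644 to 7595245 on the plus strand, and its end overlaps the antisense gene Ccdc22 by 1437 bases. Tnfrsf4 and Tnfrsf18 are neighbors on chromosome 4, 9551 bases apart, and are higher together as given above. Promoter windows of 300 bases (250 before and 50 after a transcript start, RefSeq, GRCm38.p6) were found for 12 of 16 genes of the identity list with Foxp3 added (14 windows) and for 11 of the 16 effector genes (13 windows). They were searched on both strands for the forkhead motif TGTTTAC, the AP-1 motif TGANTCA and the RUNX motif TGTGGNT. Matches of different motifs may share letters, and in Prdm1 the RUNX and forkhead matches overlap and print as 1 run of capitals.

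No identity window held the forkhead or the AP-1 motif, and 2 (14.3%; Foxp3 and Capg) held the RUNX motif. Of the 13 effector windows 2 held the forkhead (15.4%, Il1rl1 and Prdm1), 3 the AP-1 (23.1%) and 5 the RUNX motif (38.5%). Over the 32851 windows searched in all, which do not cover every promoter, the shares were 3.65%, 7.81% and 20.2%. With so few windows of list genes these are descriptions of sequence. The windows with the forkhead motif and, of the 2 windows of Foxp3, the one with a match are shown with all motif matches in capitals, because Prdm1 is the only window with all 3 motifs and Foxp3 defines the cells.
Foxp3, chrX:7580233-7580532, plus strand: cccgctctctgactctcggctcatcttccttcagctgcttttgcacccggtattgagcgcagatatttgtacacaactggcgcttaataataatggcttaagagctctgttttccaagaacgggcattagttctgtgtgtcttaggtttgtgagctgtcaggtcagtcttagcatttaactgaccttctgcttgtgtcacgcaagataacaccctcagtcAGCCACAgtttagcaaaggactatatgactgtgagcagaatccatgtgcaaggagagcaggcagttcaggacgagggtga
Prdm1, chr10:44458699-44458998, minus strand: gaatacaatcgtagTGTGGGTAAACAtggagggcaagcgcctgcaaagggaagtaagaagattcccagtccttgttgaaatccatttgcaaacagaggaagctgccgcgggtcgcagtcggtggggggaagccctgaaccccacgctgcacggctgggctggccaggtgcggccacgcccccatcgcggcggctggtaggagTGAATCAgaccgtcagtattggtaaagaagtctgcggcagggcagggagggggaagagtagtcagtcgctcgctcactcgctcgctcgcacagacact
Il1rl1, chr1:40439379-40439678, plus strand: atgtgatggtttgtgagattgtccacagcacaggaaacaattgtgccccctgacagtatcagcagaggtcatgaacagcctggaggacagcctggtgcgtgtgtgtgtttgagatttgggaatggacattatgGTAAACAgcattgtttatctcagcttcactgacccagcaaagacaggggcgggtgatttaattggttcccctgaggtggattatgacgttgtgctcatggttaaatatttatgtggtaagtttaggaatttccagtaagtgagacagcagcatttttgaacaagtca

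Costimulatory receptors stood above the CD4 barcodes as a group. Of 9 listed genes of the TNF receptor and CD28 families 7 were compared, and 6 were at least 2-fold higher and none lower (median 1.77, receptor-checked 4 of 7, 1.05), with 4 of 7 higher than in CD8 T barcodes (median 1.75, receptor-checked 4 of 7, 1.74). Those 4 were Tnfrsf4, Tnfrsf9, Tnfrsf18 and Icos, which also stand in the identity or effector list, so that the counts of these lists are not separate, while Cd27 (0.15, −0.00 to 0.30) and Cd28 (0.16, −0.04 to 0.35) had intervals over CD8 T barcodes that included 0. Tnfrsf1b, the TNF receptor that supports regulatory T cells, was at 239 CPM against 179 and 186. Tnfrsf4 had the highest ratio of the list to CD8 T barcodes, with 718 CPM against 125 in CD4 (2.52, 1.92 to 3.19) and 47.6 in CD8 T barcodes (3.91, 3.65 to 4.19).

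Checkpoint receptors gave a different order against each contrast. Against CD4 barcodes 6 of 8 were at least 2-fold higher and 1 lower (median 1.80, receptor-checked 5 and 1, 1.39), and against CD8 T barcodes 2 of 9 were higher and 3 lower (median −0.47, receptor-checked 2 and 2, −0.33). Pdcd1 (PD-1) was at 201 CPM, beside 48.9 CPM in CD4 barcodes (2.04, 1.08 to 3.19) and 279 CPM in CD8 T barcodes (−0.47, −0.71 to −0.24). Lag3 was at 90.5 CPM against 135 in CD8 T barcodes (−0.58, −0.94 to −0.23), and Havcr2 (TIM-3) at 64.4 against 138 (−1.10, −1.52 to −0.69). Tigit was the other way, at 49.7 against 23.6 (1.07, 0.50 to 1.64). Cd200 was lower than in CD4 barcodes (−2.68, −3.65 to −1.74) with 50% of its 18 UMIs in 1 member.

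**Figure D4:**
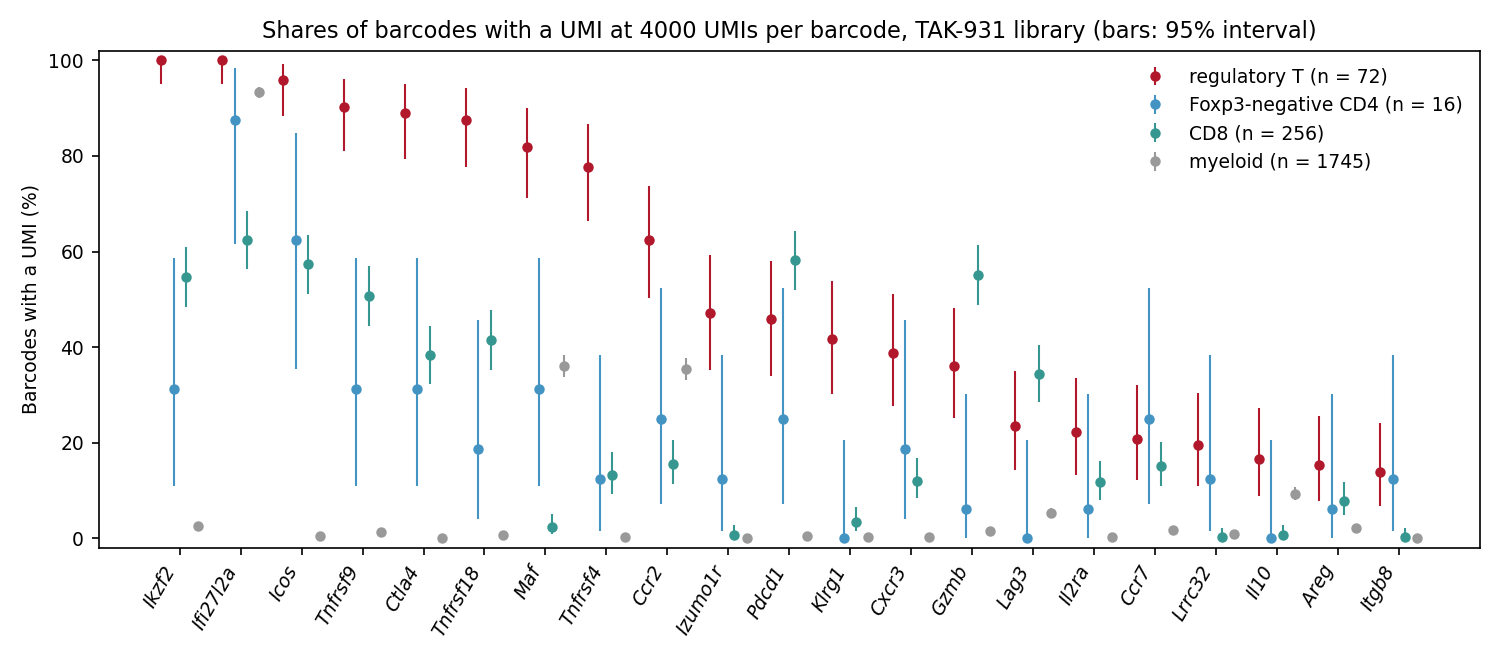
Points are shares of barcodes with at least 1 UMI of a gene after each barcode was thinned to 4000 UMIs, with exact 95% intervals, for regulatory T, Foxp3-negative CD4, CD8 T and myeloid barcodes of the TAK-931 library; myeloid barcodes stand for transcripts that a T cell gene should lack. Ikzf2 was found in 100% of regulatory T barcodes and 54.7% of CD8 T barcodes, Pdcd1 and Gzmb in more CD8 T than regulatory T barcodes.

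Genes of resting T cells gave a mixed picture. None of 7 compared genes was at least 2-fold higher than in CD4 barcodes and 3 were lower (median −0.59), and receptor-checked 1 was higher and 3 lower (−0.82). The median was −1.50 with over 1000 genes and 0.09 with the Cd4 condition dropped. The 3 lower as reported were S1pr1 (−1.35, −1.98 to −0.71, receptor-checked −0.82), which lets lymphocytes leave tissue, its regulator Klf2 (−1.82, −2.45 to −1.19) and Satb1 (−1.04, −1.54 to −0.51). Against CD8 T barcodes 3 of 10 were higher, among them Il7r, the IL-7 receptor (218 CPM against 53.3), and S1pr1 (72.4 against 36.0), and 2 were lower (median −0.75, receptor-checked 3 and 1 of 9, −0.44). One of the lower was Tcf7, a factor of naive and memory T cells, with 2 UMIs in 1 of the 72 members and 134 UMIs in CD8 T barcodes (−4.30, −7.36 to −2.42), and the other Igfbp4 with 0 UMIs against 40, at least 3.93-fold lower, a gene under the count minimum receptor-checked.

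Genes of resting and activated cells were also read pair by pair over the 72 members. Without thinning Klrg1 and Il10 were found together in 5 members, Klrg1 alone in 33, Il10 alone in 13 and neither in 21. Klrg1 and Ccr7, a lymph node homing receptor, were together in 11, Klrg1 alone in 27, Ccr7 alone in 14 and neither in 20. Klrg1 and Gzmb, a killer cell protease, were together in 21, Klrg1 alone in 17, Gzmb alone in 16 and neither in 18. Klrg1 and Cxcr3 were together in 27, Klrg1 alone in 11, Cxcr3 alone in 19 and neither in 15. At 4000 UMIs per barcode Klrg1 was together with Il10 in 4 members, with Ccr7 in 4, with Gzmb in 14 and with Cxcr3 in 10, and neither gene of the pair was found in 34, 31, 30 and 24. Unthinned counts depend on the depth of each member, and low counts leave many zeros, so no subsets were defined.

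Among factors of helper lineages Maf, which promotes Il10 transcription in T cells, had the highest ratios. It was at 795 CPM, beside 92.4 CPM in CD4 (3.10, 2.41 to 3.89) and 11.7 CPM in CD8 T barcodes (6.09, 5.60 to 6.63), and was detected in 97.2% of members. Myeloid barcodes had 136 CPM. Gata3, a factor of type 2 helper cells also used by regulatory T cells, was at 116 CPM against 43.5 and 44.9 (1.37, 0.99 to 1.75 over CD8). Tbx21 was at 13.6 CPM and Eomes at 0 UMIs against 485 in CD8 T barcodes, at least 47.6-fold lower. Over the list 2 of 7 were at least 2-fold higher than in CD4 barcodes and none lower (median 0.42, receptor-checked 2 of 6, 0.11), and 2 of 9 higher and 1 lower than in CD8 T barcodes (median −0.25, receptor-checked 3 and 1, −0.28).

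Effector cytokines were scarce. Il2, Il4, Il5, Il13, Il17a, Il21, Il22 and Csf2 had 0 UMIs in the 72 members, Il17f had 1 and Ifng had 5, and Ifng was at 5.65 CPM against 79.9 CPM in CD8 T barcodes (−3.82, −5.46 to −2.58). With so few barcodes most of these were not detectable in CD4 barcodes either, where only Il4, Il21 and Ifng had 1, 1 and 2 UMIs. Ccl5, a chemokine of activated T cells, was abundant, at 2865 CPM beside 1294 in CD4 (1.15, 0.95 to 1.34) and 9222 in CD8 T barcodes (−1.69, −1.75 to −1.63). Tnfsf8 (CD30 ligand) had 8 UMIs against 21 in CD4 barcodes (−3.66, −5.04 to −2.43), with 87.5% of them in 1 member. Of 5 cytokine genes compared with CD4 barcodes 2 were higher and 1 lower (median 0.98), and receptor-checked only 2 could be compared, 1 higher and 1 lower, with a median of the other sign (−1.55). Of 5 compared with CD8 T barcodes 1 was higher and 3 lower (median −1.36), and receptor-checked none was higher and 3 were lower (−1.58).

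The cytotoxic program was the plainest difference from CD8 T barcodes. All 7 listed genes were at least 2-fold lower (median −4.24, receptor-checked 7 of 7, −4.21), beside 9.16% of all genes. Gzma was at 3.39 CPM against 176 (−5.70, −7.98 to −4.15), Prf1 (perforin) at 12.4 against 203 (−4.03, −5.04 to −3.18) and Fasl at 4.52 against 122 (−4.76, −6.64 to −3.39). Gzmb was the gene closest to CD8 T barcodes, at 248 CPM against 668 (−1.43, −1.64 to −1.23), and was detected in 51.4% of members, or 36.1% at 4000 UMIs, beside 1.66% of myeloid barcodes. It was also higher than in CD4 barcodes (2.05, 1.18 to 3.07, receptor-checked 4.73), whereas Gzma was lower there (3 against 53 UMIs; −6.41, −8.73 to −4.78) in a contrast where 12.5% of barcodes carried it at 4000 UMIs. Over the list 1 of 3 genes compared with CD4 barcodes was higher and 1 lower (median 0.72, receptor-checked 1 and 0 of 2, 2.52), and the median was −0.88 with over 1000 genes. Receptor-checked, Gzma fell under the count minimum, so that its lower level over CD4 barcodes has no checked value.

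Receptors for tissue entry were led by Ccr2 and Cxcr3. Ccr2, the receptor of the monocyte chemokine Ccl2, was at 503 CPM, beside 65.3 CPM in CD4 (2.95, 2.13 to 3.91) and 77.6 CPM in CD8 T barcodes (2.70, 2.47 to 2.93), with 138 CPM in myeloid barcodes. Cxcr3, the receptor of interferon-induced chemokines, was at 141 CPM against 38.1 and 30.6 (1.89, 0.81 to 3.24, and 2.21, 1.81 to 2.61). Cxcr6 was at 107 CPM, above the 43.5 CPM of CD4 barcodes (1.30, 0.27 to 2.56, receptor-checked 0.55) and below the 421 CPM of CD8 T barcodes (−1.97, −2.29 to −1.67), and Gpr183 was also below CD8 T barcodes (−1.23, −1.48 to −0.99). Of the 15 homing genes 8 were compared with CD4 barcodes, with 4 at least 2-fold higher and 1 lower (median 0.89, receptor-checked 3 and 1, 0.40), and 9 with CD8 T barcodes, with 2 higher and 2 lower (median 0.30, receptor-checked 2 and 2, −0.04). Ccr4 had 8 UMIs, and Ccr6, Ccr10 and Cxcr5 had none.

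Signaling lists were closer to the contrasts. None of 10 NF-kB genes was 2-fold apart from CD4 barcodes (median 0.12, receptor-checked 1 higher, 0.20), and 4 were higher than in CD8 T barcodes (median 0.86, receptor-checked 4, 0.83), among them Rel, the subunit required for regulatory T cell development (1.28, 1.00 to 1.55). Of 9 interleukin and interferon receptors 3 were higher than in CD4 barcodes and none lower (median 0.37, receptor-checked 2, 0.39), and of 13 compared with CD8 T barcodes 4 were higher and 1 lower (median 0.93, receptor-checked 6 and 2 of 12, 0.71), with Il6st (2.09, 1.46 to 2.74) and Il12rb2 (−2.23, −3.38 to −1.26) at the ends among genes other than Il1rl1. Of 9 TGF-beta genes 2 were higher and 1 lower than in CD4 barcodes (median −0.07, receptor-checked 2 and 0 of 8, 0.09), and 2 were higher and none lower than in CD8 T barcodes (median 0.56, receptor-checked 1 higher, 0.57).

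T cell receptor response genes were split. Of 9 compared with CD4 barcodes 2 were higher and 2 lower (median 0.03, receptor-checked 0 and 1, 0.03), and with CD8 T barcodes 3 were higher and 3 lower (median 0.38, receptor-checked 2 and 3, 0.38). Cd5, whose level follows receptor signal strength, was at 367 CPM against 179 and 79.6 (1.03, 0.52 to 1.60, and 2.21, 1.96 to 2.45), and its ratio to CD4 barcodes was 0.35 receptor-checked. Egr1 was at 26.0 CPM against 1653 CPM in CD4 barcodes (−5.99, −6.67 to −5.38), and receptor-checked the ratio was 0.03, so that difference lay in the CD4 barcodes that failed the check. Nr4a1 likewise was −1.95 (−2.65 to −1.25) and −0.56 receptor-checked.

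Interferon-stimulated genes were higher than in CD8 T barcodes. Of 12 compared genes 7 were at least 2-fold higher and none lower (median 1.13, receptor-checked 6 of 10, 1.21). Ifi27l2a, an interferon-induced mitochondrial protein, had 6189 CPM beside 2333 in CD4 (1.41, 1.27 to 1.55) and 972 in CD8 T barcodes (2.67, 2.61 to 2.74), and it was found in every member at 4000 UMIs and in 93.3% of myeloid barcodes. Isg15, a ubiquitin-like modifier, was at 266 CPM against 112 in CD8 T barcodes (1.24, 1.00 to 1.49). Against CD4 barcodes 1 of 9 was higher and 1 lower (median 0.45), and receptor-checked 5 of 9 were higher and none lower (median 1.25). The median turned below 0 without possible doublets (−0.38) and with the Cd4 condition dropped (−1.15).

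Division genes are bounded by the rule, which limits Mki67 and Top2a. Of 11 S phase genes compared with CD8 T barcodes, chosen under the same limit, none was 2-fold higher and 1 was lower (median −0.54, receptor-checked 0 and 1, −0.43), and of 9 G2/M genes none was higher and 1 lower (median −0.11, receptor-checked 0 and 0, −0.18). Against CD4 barcodes 4 of 7 S phase genes were at least 2-fold higher and none lower (median 1.19, receptor-checked 2 of 5, 0.86), and 1 of 2 G2/M genes was higher (receptor-checked 1 of 2). Mcm6, a subunit of the helicase that CDC7 phosphorylates as a complex, was at 67.8 CPM against 16.3 (3 UMIs) in CD4 and 99.2 in CD8 T barcodes (−0.55, −0.97 to −0.14).

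**Figure D5:**
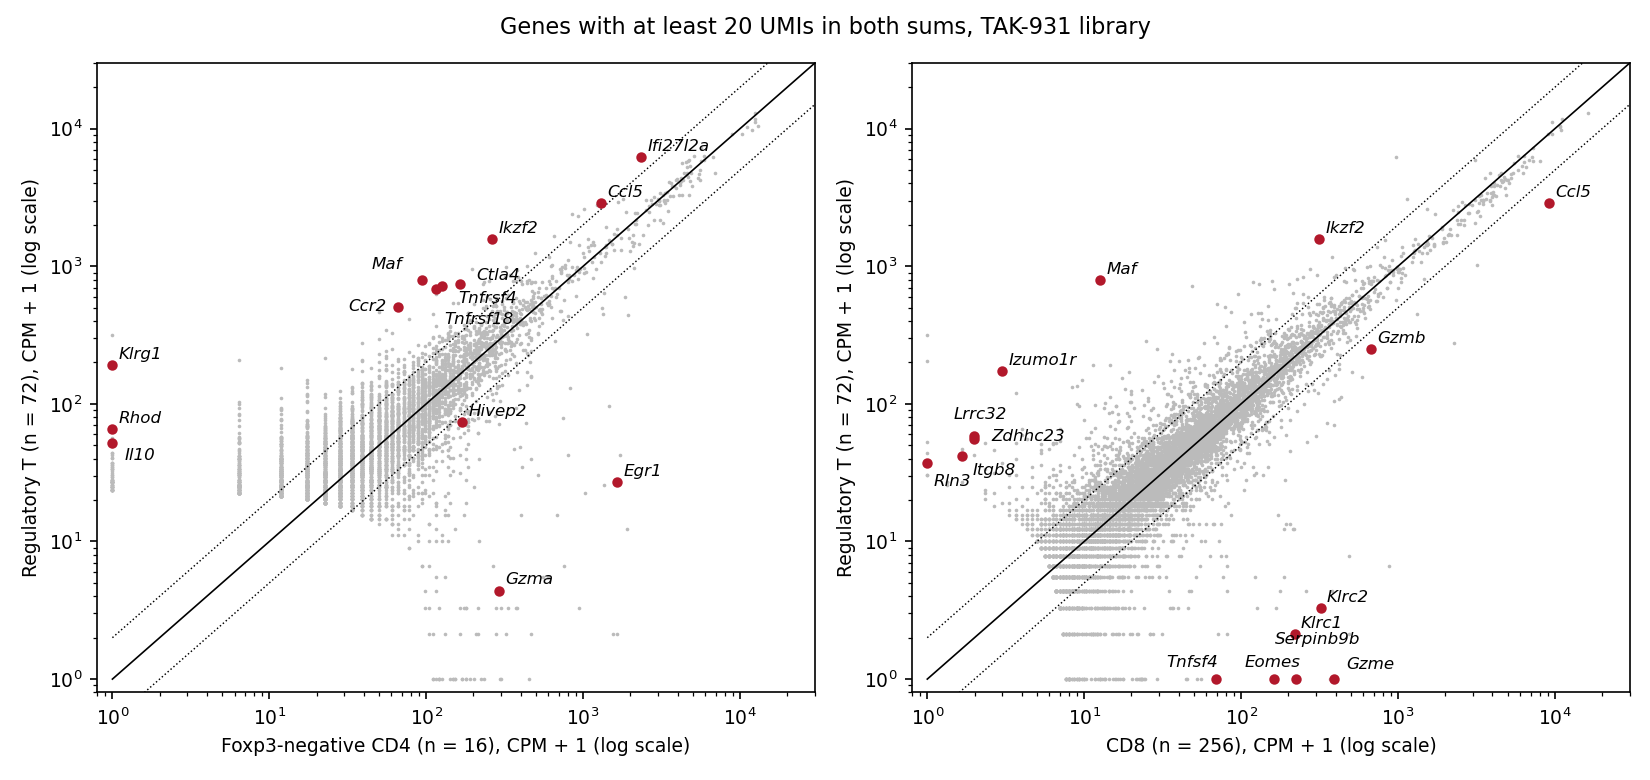
Each grey point is a gene whose 2 sums together reach 20 UMIs, with its level in regulatory T barcodes (n = 72) against Foxp3-negative CD4 (left, n = 16) and CD8 T barcodes (right, n = 256) in CPM + 1 on log axes; the solid line marks equal levels, dotted lines 2-fold, and red points are named genes. The left cloud is wider at low levels, and Maf and Ikzf2 lie above the upper dotted line in both panels.

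Across all genes the highest ratios to CD4 barcodes, among genes in at least 20% of members and spread over barcodes, were those of Klrg1, Rhod, Slc16a3, Il10, Igflr1, Ssbp1, Eif4e3, Slc45a4, Cnnm2, Impa2, Lin54 and Grb7, each with 0 to 2 UMIs in the 16 CD4 barcodes. Rhod, a GTPase of vesicle traffic, had 57 UMIs in 35 members and none in CD4 barcodes, at least 3.95-fold higher. Igflr1, a receptor of the TNF receptor family, had 91 UMIs in 44 members against 1 (4.24, 1.73 to 9.56), beside 19.0 CPM in CD8 T barcodes. Ssbp1, a mitochondrial DNA-binding protein, was no higher than in CD8 T barcodes (99.5 CPM against 99.9), and its ratio to CD4 barcodes was 0.71 when receptor-checked with over 1000 genes.

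At the low end the ranking took genes with at least 30 UMIs in at least 20% of CD4 barcodes and under 20% of those UMIs in 1 barcode. Genes outside it, such as Egr1 and Klf2, had lower ratios, as given above. Of the 12 lowest under these limits Hivep2 (72.4 CPM against 169; −1.22, −1.86 to −0.55), a zinc finger factor, and the chaperone Hsp90aa1 (643 against 1354; −1.07, −1.29 to −0.85) were past 2-fold. Hivep2 was at −1.29 receptor-checked but −0.63 without possible doublets. Hsp90aa1 was at −0.88 receptor-checked, −0.86 with over 1000 genes and −0.56 with the Cd4 condition dropped, but −1.44 without possible doublets. The other 10 were Eif5, Eif5a, Etf1, Prdx1, Set, Kdm6b, Eif4a1, Srsf11, Rhoa and Eef1g, several of which serve translation, with log2 ratios from −0.92 to −0.63. Set and Srsf11 turned to 0.03 and 0.21 in 1 alternative each.

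Against CD8 T barcodes the highest were Rln3, Izumo1r, Maf, Itgb8, Lrrc32 and Zdhhc23. Rln3, which encodes the peptide hormone relaxin-3, had 32 UMIs in 19 members and none in 256 CD8 T, 1745 myeloid or 67 J558 barcodes, at least 36.2-fold higher than in CD8 T barcodes. It lies on chromosome 8 on the minus strand at 84042929 to 84045000, 339 bases upstream of Il27ra on the same strand, and Il27ra was at 66.7 CPM in members against 32.0 in CD8 T barcodes (1.06, 0.57 to 1.54). Whether the reads belong to Rln3 transcripts or to the neighbor was not tested. Zdhhc23, a palmitoyltransferase, was at 54.3 CPM against 0.999 (5.76, 4.13 to 8.09).

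The 6 lowest against CD8 T barcodes were Gzme, Serpinb9b, Eomes, Klrc1, Klrc2 and Tnfsf4. Gzme had 0 UMIs against 1170 in 60 barcodes (23.4%), at least 115-fold lower, and Serpinb9b, a granzyme inhibitor, 0 against 667, at least 65.5-fold lower. The NKG2 receptors Klrc1 and Klrc2 had 1 and 2 UMIs in 1 member each, beside 656 and 961 UMIs in CD8 T barcodes (−7.59, −12.90 to −5.11, and −7.14, −10.19 to −5.29). Tnfsf4, the ligand of OX40, had 0 UMIs against 206, at least 20.2-fold lower, while its receptor Tnfrsf4 was higher in the members as given above.

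Foxp3-positive T barcodes outside the cell cycle limit also carried the regulatory T cell markers. These 27 barcodes of the TAK-931 library had a median of 25527 UMIs, and 21 of them held over 6 Mki67 and Top2a UMIs. Foxp3, which chose both groups from 1 UMI at unequal depth, was at 315 CPM in members and 245 CPM in these barcodes. Of the other markers, members were higher by a log2 ratio of 0.24 (0.12 to 0.36) in Ikzf2, 0.53 (0.34 to 0.72) in Ctla4, 0.33 (0.15 to 0.52) in Tnfrsf4 and 0.30 (0.11 to 0.48) in Tnfrsf18. Among list genes higher in members, larger differences were seen in Il7r (1.84, 1.36 to 2.35), Il10 (1.46, 0.55 to 2.48), Ccr2 (1.39, 1.11 to 1.68), Izumo1r (1.12, 0.67 to 1.59) and Maf (1.10, 0.90 to 1.31). Genes lower in members are not named here. Over all 6439 genes compared 7.89% were at least 2-fold higher in members and 8.4% lower, and dividing barcodes spread their UMIs over more genes (median 4533 against 2867).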

How the data were processed

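Raw UMI counts per gene and barcode, deposited by the authors for 1 vehicle and 1 TAK-931 allograft, were made with Cell Ranger 6.0.0 on mm10 per the submitters' processing notes (the study's methods name a human build for single-cell data); they are not normalized. Limits of over 2000 genes and under 15% mitochondrial UMIs are those of the methods. The tools were numpy 2.4.6 for sums, scipy 1.17.1 for intervals, pandas 2.3.3 for tables and matplotlib 3.10.9 for plots, under python 3.11.15. Members, gene lists and contrasts were chosen with earlier results of these data known.

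UMIs were summed per group and scaled to CPM. Ratios carry exact conditional Poisson intervals, with 0.5 UMI added to both counts where one was 0, and shares carry Clopper-Pearson intervals. Named genes were Foxp3, the 17 lists, and the 12 (CD4) or 6 (CD8) highest and lowest ratios among genes with at least 30 UMIs in at least 20% of barcodes of the higher group and under 20% of them in 1 barcode. Genes of the rule and mitochondrial, ribosomal, haemoglobin, immunoglobulin, T cell receptor variable and unnamed genes were left out of that ranking. With 1 library per group no test was run. The steps were tried on simulated Poisson counts without spread between barcodes, so they say nothing of that spread. Doublets were not called, since the methods name no such step, but an alternative left out deep or mixed barcodes. Thinning drew each barcode to 4000 UMIs with no barcode too shallow. Alternatives and 2 added after seeing the data are described at the end. Some genes stand in more than 1 list, and some are not reported here.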

Additional observations from a re-analysis of the deposited data

Results flagged for a closer look

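Foxp3-positive T barcodes also occurred outside the limits of the rule. Among barcodes of over 500 and at most 2000 genes, which the comparisons leave out, 35 of 1147 in the TAK-931 library met the other conditions (3.05%, 2.13 to 4.22), above 3 of 722 in the vehicle library (0.416%, 0.0858 to 1.21). They had a median of 4031 UMIs, and 12 of the 35 held under 5 T cell receptor UMIs.

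In the TAK-931 library 27 of 99 Foxp3-positive T barcodes (27.3%, 18.8 to 37.1) were over the cell cycle limit, beside 2 of 3 in the vehicle library (both with over 20 UMIs of other lineages) and 166 of 422 CD8 T barcodes of the TAK-931 library (39.3%, 34.6 to 44.2). The 27 had a median of 25527 UMIs beside 11013 in the members, and the part of depth in these shares was not tested.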

How the results depend on the processing

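No paired analysis was possible because each group has 1 library and the labels number no replicates. Alternatives were lower gene limits, other mitochondrial limits, at least 2 Foxp3 UMIs, centred ratios, mean CPM of barcodes, free RNA subtracted (2.55% in members), possible doublets left out, other count minimums, a contrast without the Cd4 condition, other thinning depths and, added after seeing the data, the receptor check with over 2000 or over 1000 genes. Among list medians and ranked genes at 2-fold or more none changed sign. Of 72 alternative values of 6 such list medians over CD4 barcodes 8 fell under 2-fold, all of the S phase and G2/M lists. Of 156 values of 14 such ranked genes 9 did, those of Hivep2, Hsp90aa1, Il10 and Ssbp1. No such value over CD8 T barcodes fell under 2-fold. Among list genes outside that ranking Egr1 went from −5.99 over CD4 barcodes to 0.03 receptor-checked. Of 11 list medians under 2-fold over CD4 barcodes 8 changed sign in at least 1 alternative, those of the resting, cytokine (0.98 to −1.55 receptor-checked), cytotoxicity (0.72 to −1.75 with at least 10 UMIs), IL-2, interleukin receptor, T cell receptor response, TGF-beta and interferon lists. Over CD8 T barcodes 3 of 11 did, those of the helper, homing and G2/M lists. Vehicle members numbered 3 with over 1000 genes, 4 with over 500 and 3 receptor-checked with over 1000, and the vehicle share of CD8-low T barcodes was 0% thinned. The TAK-931 share was 29.1% with over 1000 genes, 27.7% with over 500, 65.3% receptor-checked and 31.5% thinned. Genes higher than in CD4 barcodes were 463 of 2956 (15.7%) with at least 50 UMIs. Genes lower were 258 of 2971 (8.68%) without possible doublets (31 against 7 barcodes), 159 of 2956 (5.38%) with at least 50 UMIs and 980 of 7461 (13.1%) with at least 10. They were 1904 of 8166 (23.3%) without the Cd4 condition, 215 of 4576 (4.7%) receptor-checked and 212 of 5236 (4.05%) receptor-checked with over 1000 genes. Of the called genes 68.4% were higher as reported, 81.8% receptor-checked and 41.3% without the Cd4 condition. Against CD8 T barcodes the identity median was 2.62 without possible doublets, and centring moved the median of all genes from 0.03 to −0.10 and the higher share of calls from 49.4% to 39.1%. Of 345 other list medians 318 and of 403 ratios of named genes 383 stayed within the margin. For a named gene this was its counting interval, with no end where a count was 0. For a list median it came from the intervals of its middle genes (cytokines over CD4 barcodes −1.07 to 4.13). Margins this wide make staying likely, so these tallies are no measure of stability. Of 30 shares of members with a UMI of a gene at other depths 9 stayed within their interval and 21 moved. Of the main results 86 alternative values stayed and 16 moved. For these shifts beyond the construction of each alternative the cause was not tested. Counts under about 20 UMIs limit most single genes in the 16 CD4 barcodes.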
